A study of Mus musculus with 6 samples.

Results

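The genes described here are the transcription factors that lay out the embryonic body axis and its organs outside the Hox clusters, 70 mouse genes of the sine oculis homeobox family (Six2 to Six6) and the Pax, Lhx, Irx, Tbx, Gata, Pitx, Msx, Otx, Emx, En, Pbx and Nkx families. They were chosen by symbol, as a family name followed by a number or as a symbol that starts with Nkx, and each has 1 probe set that names no other gene. They are 70 of the 19938 genes with such a probe set on the array, come from 13 families and lie on 18 chromosomes. Pax6, Lhx2 and Nkx2-2 have such symbols too but were left out by name, with earlier results of these data known, and are described near the end.
RNA was measured in neurospheres, which are floating spheres of neural stem/progenitor cells, started from CD1 mice aged 4 to 6 weeks by dissociating the lateral ventricle wall. The 3 Bmi1-overexpressing cultures had received the pCMMP-Bmi1 retroviral vector and the 3 control cultures the empty vector. Both groups were sorted by FACS on the eGFP that the vectors encode, and then grown at clonal density (2000 cells in each well). The design text calls the cultures of each group independent, and the sources used here do not say which mice each culture came from, CD1 being an outbred stock. The labels name the unflagged construct whereas the study's text names Bmi1-FLAG for its arrays, and the source field gives every array the other group's name. The title, transduction and genotype entries of each array have 1 group in common, which was used.
These families work through DNA-binding domains. Pax, Lhx, Irx, Pitx, Msx, Otx, Emx, En, Pbx, Nkx and sine oculis proteins bind DNA by a homeodomain (in some Pax proteins a partial one or none, beside the paired domain), T-box proteins by the T-box and GATA proteins by zinc fingers. In the embryo they divide the neural tube and the mesoderm into territories: Emx and Otx genes mark the forebrain, En genes the midbrain and hindbrain border, Nkx2-1 and Lhx6 the ventral forebrain, and Tbx, Gata and Nkx2-5 genes the heart and limbs. Genes of this kind are well known as targets of Polycomb complexes in embryonic stem cells, and BMI-1 is a subunit of Polycomb repressive complex 1.
According to the submitters' processing notes the values were made by RMA in Affymetrix Expression Console, a method that removes background, brings the arrays to a common distribution and gives 1 log2 value per probe set. Array medians lay between 4.37 and 4.45, and correlations between arrays were 0.991 to 0.993 inside a group and 0.985 to 0.987 across the groups. All differences below are Bmi1-overexpressing minus empty vector neurospheres on the log2 scale, tested with limma on all 6 arrays. A gene is said to have risen or fallen at an adjusted p under 0.05, where the Benjamini-Hochberg adjustment covers all 35557 probe sets. The Bmi1 probe set itself read 9.18, 8.36 and 8.42 in Bmi1-overexpressing cultures, against 7.70, 8.40 and 8.31 in empty vector cultures, and its difference of 0.52 did not pass the test (adjusted p = 0.38). Epha7 and Cdkn2a, the latter a known BMI-1 target, differed by -3.82 and -1.08 (adjusted p = 1.1e-04 and 0.0012).
Few patterning factors changed in Bmi1-overexpressing neurospheres. Pbx3 and Tbx3 rose, Six3 fell, and 67 of the 70 genes did not pass the test. The share that passed was 4.29%, against 5.7% of all probe sets and 7.35% of all genes at 1 probe set each. In the upward direction it was 2.86%, against 2.23% of all probe sets and 2.98% of all genes. In the downward direction it was 1.43%, against 3.46% of all probe sets and 4.37% of all genes. With Pax6, Lhx2 and Nkx2-2 added, 3 of 73 rose and 1 fell, a share of 5.48%, and Nkx2-2, at 1.82, had the largest difference. After each array was centred on its median, 593 of all probe sets rose and 1467 fell, in place of 794 and 1231, and the 3 patterning factors called were the same. Without this centring the differences of the 70 ran from -0.47 to 0.68 with a median of 0.04 (quartiles -0.05 and 0.14). Of the 70, 44 were above and 26 below 0, against 10588 above and 9350 below among all genes at 1 probe set each. The median over all probe sets was 0.02, and -0.03 after median centring, so the side of 0 depends on the normalization for differences this small. No patterning factor differed by 1 or more, and 2 differed by 0.5 or more.
The arrays of the 2 groups did not overlap for 16 patterning factors, 10 higher and 6 lower in Bmi1-overexpressing cultures. These are 22.9% of the 70, against 26.6% of all probe sets and 31.3% of all genes at 1 probe set each. The 10 were Emx2, Irx1, Lhx6, Nkx2-1, Nkx2-5, Nkx6-1, Pbx3, Pitx1, Six6 and Tbx3, and the 6 were Irx5, Otx1, Pbx2, Pbx4, Six3 and Six4. An unadjusted limma p under 0.05 was reached by 12 of the 70, or 17.1%, against 19.9% of all probe sets and 22.7% of all genes.

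**Figure D1:**
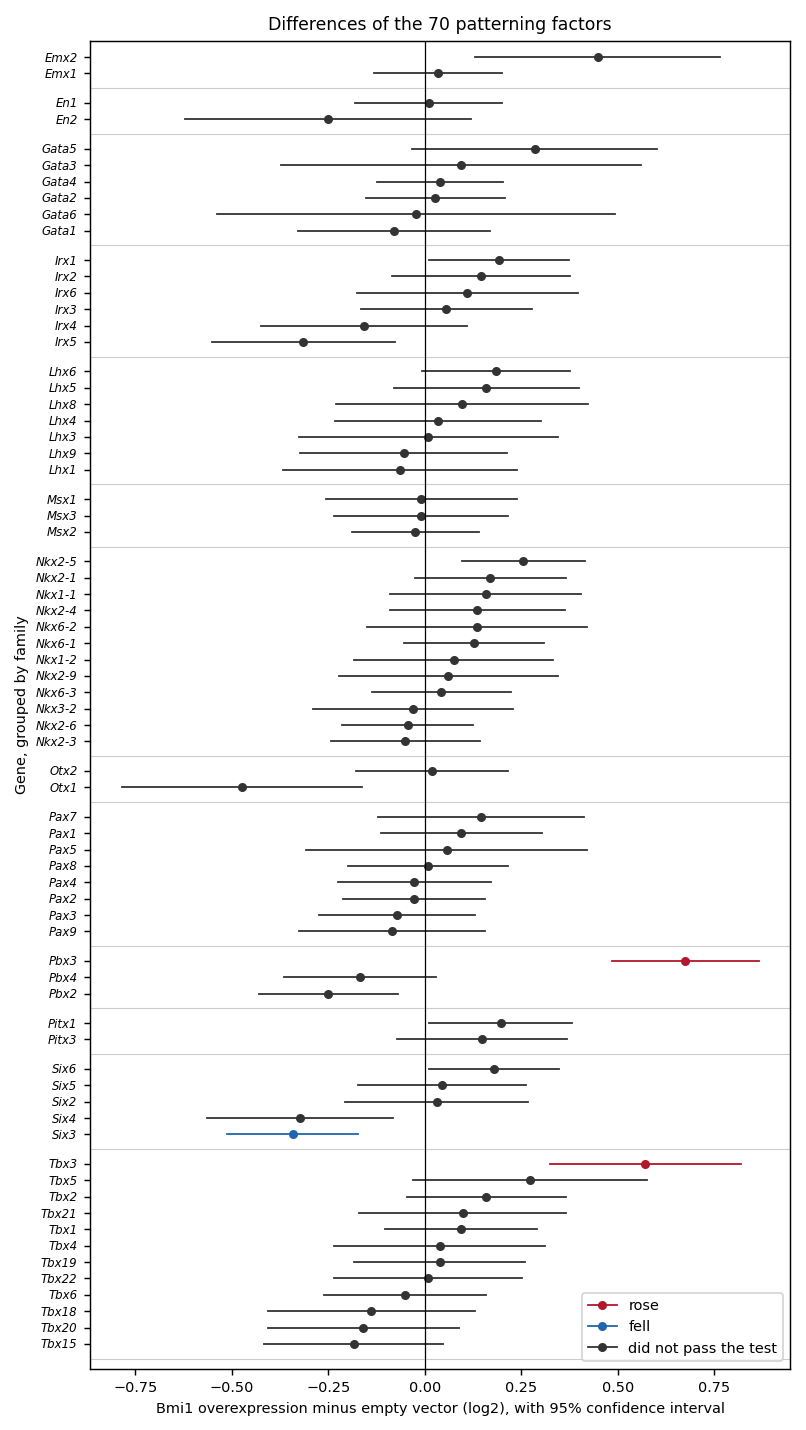
Log2 difference, Bmi1-overexpressing minus empty vector neurospheres (x axis), of each of the 70 patterning factors (y axis, grouped by family), with its 95% confidence interval from limma. Pbx3 at 0.68 and Tbx3 at 0.57 rose and Six3 at -0.34 fell, while the other 67 points did not pass the test.

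Many of these probe sets were dim. The mean over 6 arrays was under 5 on the log2 scale for 45 of the 70 patterning factors, or 64.3%, against 48.7% of all genes. None of these 45 passed by limma or by the methods' t-test after Benjamini-Hochberg adjustment, and 2 had an unadjusted limma p under 0.05. Of the other 25, 2 rose and 1 fell, a share of 12.0%, against 12.3% of the 10223 genes with a mean of at least 5. Among the 9715 genes with a mean under 5 the share was 2.15%. All 8 Pax, all 6 Gata and both En genes among the 70 were in the dim class, while Pax6, left out by name, had a mean of 6.61. The table holds no detection calls, so a dim probe set does not show that a gene is silent. The 95% confidence interval of the difference lay within 0.5 of 0 for 58 of the 70 and within 1 of 0 for all 70, and reached a median of 0.23 to either side of the difference (0.16 to 0.52). Of these 58, 39 had a mean under 5. RMA understates differences of dim probe sets, so for them these intervals do not bound the change in RNA.

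**Figure D2:**
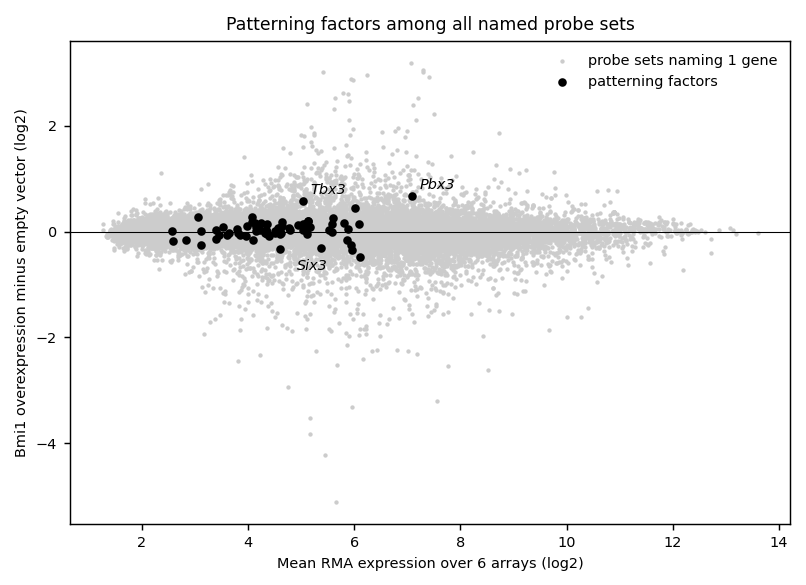
Log2 difference (y axis) against the mean log2 value over 6 arrays (x axis) for all probe sets that name 1 gene (grey) and the 70 patterning factors (black). The patterning factors have means from 2.57 to 7.09 and differences from -0.47 to 0.68, and Pbx3, the largest rise, also has the highest mean among them.

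Pbx3 rose the most. It encodes a homeodomain protein of the TALE class that binds DNA together with Hox and Meis proteins. Its probe set 10481857 read 7.41, 7.43 and 7.43 in Bmi1-overexpressing cultures, against 6.63, 6.76 and 6.86 in empty vector cultures. The 3 Bmi1 arrays lay almost on one value, and all were above every empty vector array. The means were 7.42 ± 0.01 in Bmi1-overexpressing and 6.75 ± 0.11 in empty vector cultures (SD, n = 3 each), a 1.60-fold difference (log2 difference 0.68, 95% confidence interval 0.49 to 0.86, adjusted p = 0.0063). The call held in each of the 6 fits that left out 1 array (adjusted p = 0.016 to 0.034). In whole cultures, more cells of a type and more RNA per cell cannot be told apart, for Pbx3 as for every gene below. The other Pbx genes measured lay on the other side of 0. Pbx2 read 5.87, 5.81 and 5.78 in Bmi1-overexpressing cultures, against 6.12, 5.97 and 6.11 in empty vector cultures, a difference of -0.25, short of the threshold (adjusted p = 0.13). Pbx4 had a difference of -0.17 (adjusted p = 0.32). The groups did not overlap for any of the 3 genes.
Tbx3 rose as well. It encodes a T-box repressor needed for limb, heart and mammary gland development. Probe set 10525016 read 5.25, 5.49 and 5.23 in Bmi1-overexpressing cultures, against 4.82, 4.81 and 4.62 in empty vector cultures. All 3 Bmi1 arrays were above all empty vector arrays. The means were 5.32 ± 0.14 in Bmi1-overexpressing and 4.75 ± 0.11 in empty vector cultures (SD, n = 3 each), a 1.49-fold difference (log2 difference 0.57, 95% confidence interval 0.32 to 0.82, adjusted p = 0.029). This call was lost without any 1 of the 6 arrays (adjusted p = 0.064 to 0.094). None of the other 11 T-box genes passed the test. Their differences lay between -0.18 and 0.27, the highest being that of Tbx5, a heart and forelimb gene with an adjusted p of 0.30. Tbx18, known from the epicardium and from pericytes, had a difference of -0.14 (adjusted p = 0.57).
Six3 was the patterning factor that fell. It is a homeobox gene of the most anterior forebrain and the eye, where it represses Wnt genes. Probe set 10447288 read 5.78, 5.72 and 5.84 in Bmi1-overexpressing cultures, against 6.09, 6.08 and 6.19 in empty vector cultures, with no overlap. The means were 5.78 ± 0.06 in Bmi1-overexpressing and 6.12 ± 0.06 in empty vector cultures (SD, n = 3 each), and the size of the change was 1.27-fold (log2 difference -0.34, 95% confidence interval -0.51 to -0.17, adjusted p = 0.044). Six3 lost its call in each of the 6 fits with 1 array less (adjusted p = 0.078 to 0.14). Of its relatives in the family, Six4, which acts in muscle development, read 4.43, 4.43 and 4.45 in Bmi1-overexpressing cultures, against 4.95, 4.60 and 4.74 in empty vector cultures, a difference of -0.32, short of the threshold (adjusted p = 0.14). Six2, Six5 and Six6 had differences of 0.03, 0.04 and 0.18.

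**Figure D3:**
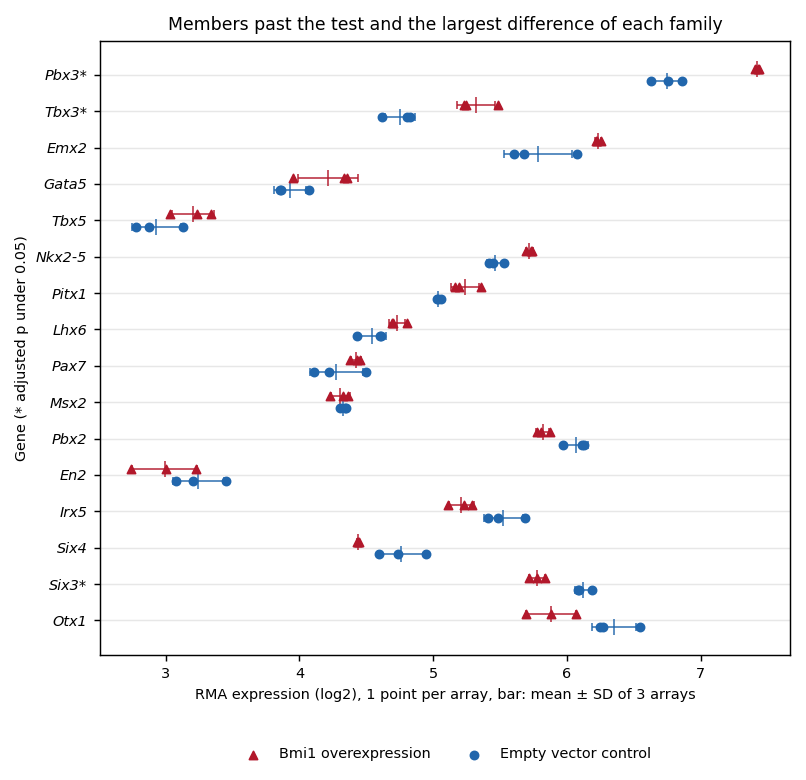
Log2 RMA values (x axis) of Pbx3, Tbx3 and Six3, which passed the test (asterisk), and of the gene with the largest difference among those that did not pass in each of the 13 families (y axis), with 1 point per array, triangles for Bmi1-overexpressing and circles for empty vector neurospheres and with the mean and SD of each group as bars. The Pbx3 arrays lie at 7.41 to 7.43 in Bmi1-overexpressing and at 6.63 to 6.86 in empty vector cultures, whereas the points of Msx2 overlap.

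The forebrain homeobox genes Emx2 and Otx1 had larger differences than Six3, in opposite directions, and neither passed the test. Emx2, which shapes the dorsal forebrain, read 6.22, 6.22 and 6.26 in Bmi1-overexpressing cultures, against 6.08, 5.68 and 5.60 in empty vector cultures. The difference was 0.45 (95% confidence interval 0.13 to 0.76, adjusted p = 0.12), and empty vector replicate 1 lay closest to the Bmi1 arrays. Without that array the difference was 0.59 and passed (adjusted p = 0.024). Otx1, needed for the cortex and the sense organs, read 5.69, 6.07 and 5.88 in Bmi1-overexpressing cultures, against 6.54, 6.27 and 6.25 in empty vector cultures. Its difference was -0.47 (95% confidence interval -0.78 to -0.16, adjusted p = 0.10). Both genes passed when the adjustment ran over brighter probe sets or over 1 probe set per gene, as given in the closing section. Their closest relatives were near 0, with differences of 0.03 for Emx1 and 0.02 for Otx2, and both of these turned below 0 after median centring.
Genes that mark the ventral forebrain, the source of many cortical interneurons, did not pass the test. Nkx2-1 had a difference of 0.17 (adjusted p = 0.32), Lhx6, a gene of migrating interneurons, one of 0.18 (adjusted p = 0.27) and Lhx8, known from cholinergic neurons, one of 0.10 (adjusted p = 0.76). Nkx6-2, which acts in the ventral neural tube, had a difference of 0.14 (adjusted p = 0.60). Of 12 Nkx genes, with Nkx2-2 left out, none passed (1 at an unadjusted limma p under 0.05), with differences from -0.05 to 0.26. The highest was that of Nkx2-5, an early heart gene, which read 5.69, 5.74 and 5.73 in Bmi1-overexpressing cultures, against 5.42, 5.45 and 5.53 in empty vector cultures (adjusted p = 0.089). It passed in 3 alternatives that adjusted over fewer probe sets (adjusted p = 0.019 to 0.047). Of 7 Lhx genes none passed (0 at an unadjusted p under 0.05), with differences from -0.06 to 0.18.
No En, Pax, Msx, Gata or Pitx gene passed the test. These families are known mainly from the midbrain, hindbrain, mesoderm, blood and endoderm. En2 had a difference of -0.25 (adjusted p = 0.44) and En1 one of 0.01. The 8 Pax genes lay between -0.08 and 0.15, with Pax7, a gene of muscle satellite cells and the dorsal neural tube, at 0.15 (adjusted p = 0.55). The 3 Msx genes lay between -0.02 and -0.01, Msx2 at -0.02 (adjusted p = 0.89) and above 0 without Bmi1 replicate 1 (0.01). Of the 6 Gata genes, Gata5, a heart and endoderm gene, had a difference of 0.28 (adjusted p = 0.30), while Gata2 and Gata3, which act in blood formation, had differences of 0.03 and 0.09. Gata2 turned below 0 after median centring. The Pitx genes had differences of 0.15 and 0.20, the latter for Pitx1, which gives the hind limb its identity (adjusted p = 0.23).
The 6 Irx genes sit in a pair of chromosomal clusters and did not move together. On chromosome 13, Irx1, Irx2 and Irx4 had differences of 0.19, 0.14 and -0.16. On chromosome 8, Irx3, Irx5 and Irx6 had differences of 0.06, -0.32 and 0.11. Irx5, a gene of heart and retina development, read 5.23, 5.11 and 5.29 in Bmi1-overexpressing cultures, against 5.41, 5.69 and 5.48 in empty vector cultures (adjusted p = 0.14). None of the 6 passed the limma test, and 2 had an unadjusted p under 0.05.
Other patterning factors also lie next to each other, counted here as at most 3 measured genes apart. The neighbours of Tbx3 on chromosome 5 were Tbx5 and Lhx5, with differences of 0.27 and 0.16, and Med13l on the other side, at -0.14 (adjusted p = 0.31). Those of Pbx3 on chromosome 2 were Mvb12b at 0.28 (adjusted p = 0.18) and Mapkap1 at -0.00 (adjusted p = 1). On chromosome 12, Six6 and Six4 had differences of 0.18 and -0.32, opposite in sign, and Nkx2-1, Nkx2-9 and Pax9 had differences of 0.17, 0.06 and -0.08. On chromosome 11, Tbx2 had a difference of 0.16 and Tbx4 one of 0.04.
Around Six3 on chromosome 17 the values split. Its opposite-strand transcript Six3os1 read 6.44, 6.40 and 6.15 in Bmi1-overexpressing cultures, against 6.91, 6.62 and 6.79 in empty vector cultures, a difference of -0.45, short of the threshold (adjusted p = 0.088). The arrays were hybridised with sense-strand targets, and whether probes of one transcript read the other was not tested. Prepl, the next measured gene beyond Six3os1 and one that encodes a peptidase-like protein, read 8.19, 8.29 and 8.29 in Bmi1-overexpressing cultures, against 8.92, 8.78 and 8.91 in empty vector cultures, and fell by 0.62 (adjusted p = 0.0071). On the other side Six2 and Srbd1 had differences of 0.03 (adjusted p = 0.90) and 0.14 (adjusted p = 0.32). Prepl was named after its values were seen. The other opposite-strand transcripts measured, Irx3os and Gata5os, had differences of -0.06 (adjusted p = 0.79) and 0.14 (adjusted p = 0.66), and that of Irx3os was 0.00 without Bmi1 replicate 3.

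**Figure D4:**
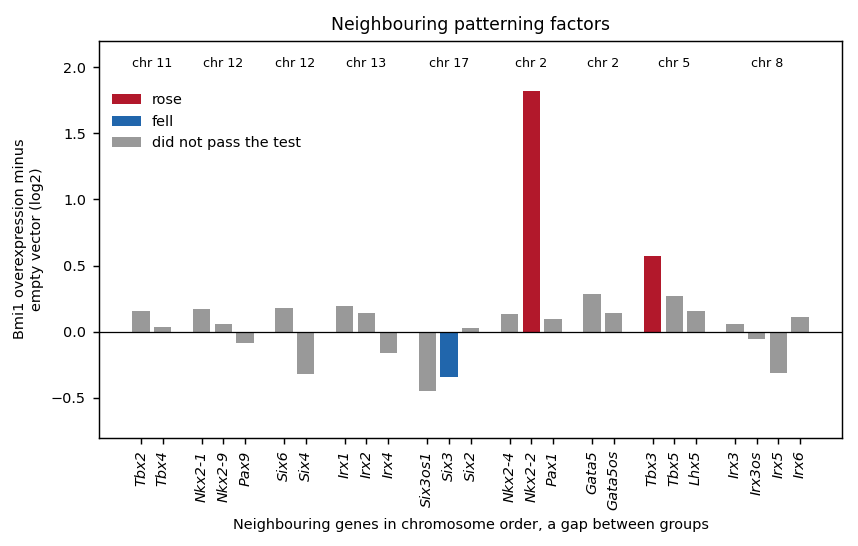
Log2 difference, Bmi1-overexpressing minus empty vector neurospheres (y axis), of patterning factors that are neighbours on a chromosome, with their opposite-strand transcripts and Nkx2-2 (x axis, in chromosome order). Tbx3 at 0.57 stands beside Tbx5 at 0.27, Six3 at -0.34 beside Six2 at 0.03, and Nkx2-2 at 1.82 beside Nkx2-4 at 0.14.

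The promoters of Six3, which fell, and of Emx2, the largest positive difference short of the threshold, are shown to compare their CpG content. Recruitment of BMI-1 complexes to CpG-rich promoters is known from other work. No promoter window was matched for Pbx3 and Tbx3, which rose, so their CpG content could not be compared. The sequences are the 250 bases before the start site in RefSeq on GRCm38.p6, plus strand, 5′ to 3′, with CpG pairs in capitals. Six3 is chr17:85620584-85620833 and Emx2 is chr19:59458440-59458689.
Six3: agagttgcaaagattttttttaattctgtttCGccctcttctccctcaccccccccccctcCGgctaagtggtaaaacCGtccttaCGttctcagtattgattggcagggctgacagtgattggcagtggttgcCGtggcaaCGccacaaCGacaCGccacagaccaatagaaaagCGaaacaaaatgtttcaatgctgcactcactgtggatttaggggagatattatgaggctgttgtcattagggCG
Emx2: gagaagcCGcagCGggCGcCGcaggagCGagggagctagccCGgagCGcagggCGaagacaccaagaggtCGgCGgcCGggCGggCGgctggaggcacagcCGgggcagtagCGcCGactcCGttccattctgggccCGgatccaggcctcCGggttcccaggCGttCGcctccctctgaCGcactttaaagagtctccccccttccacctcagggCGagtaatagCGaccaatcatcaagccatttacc
The Six3 stretch holds 10 CpG pairs at a GC content of 48.8%, and the Emx2 stretch 24 at 67.2%. With the 50 bases after the start added, Six3 has 14 CpG pairs and Emx2 26. At least as many are found in 36.9% of the windows of all genes for Six3 and in 16.8% for Emx2. The Six3 stretch also holds TGACAG, the letters that Meis proteins prefer, at position 112 counted from its 5′ end.
A RefSeq window of 300 bases was matched for 52 of the 70 patterning factors, and Pbx3, Tbx3 and Otx1 were not among them. They held a median of 19 CpG pairs, from 1 in Tbx22 to 40 in Nkx6-1, against 7 in the 27018 windows of all genes and 13 in the 17485 windows of protein-coding genes. The protein-coding median was reached or passed by 39 of the 52. The ratio of observed to expected CpG had a median of 0.684 in the patterning factors, against 0.389 in all genes and 0.577 in protein-coding genes. Both strands were also searched for 4 motifs. TGACAG was found in 12 of the 52 windows (23.1%, against 19.3% of all windows) and TAATTA, a core bound by many homeodomains, in 5 (9.62%, against 5.32%). GATAAG, the letters preferred by GATA factors, was found in 1 window, that of Otx2 (1.92%, against 7.42%), and AGGTGTGA, preferred by T-box proteins, in 0 of 52, against 1.28% of all windows. These matches describe letters in a window and no binding was measured.
Patterning factors work with partner proteins, and several partner genes changed. Of 74 listed partners and relatives, 67 had a probe set of their own, of which 4 rose, 5 fell and 58 stayed short of the threshold. The relatives measured are 3 LIM homeobox, 3 T-box and 29 other patterning homeobox genes, and of these only Prrx1 passed. The share of the 67 that passed was 13.4%, against 5.7% of all probe sets and 12.3% of the genes with a mean of at least 5. Of the 67 partners and relatives, 26 had a mean under 5. The groups did not overlap for 28 of them, or 41.8%, against 26.6% of all probe sets and 46.1% of the genes with a mean of at least 5. Their median difference was 0.02. Eya1, Dach1 and Prrx1 are among the genes that the study selected on these same arrays, so their part in the count is not independent evidence.
The partners of Six3 and its relatives lay on both sides of 0. Of 6 measured, Eya1 and Dach1 fell and none rose. The share that fell was 33.3%, against 3.46% of all probe sets, 4.37% of all genes and 7.46% of the genes with a mean of at least 5. Both are among the genes that the study selected on these same arrays. Eya1, a phosphatase and coactivator that Six3 relatives carry to DNA, read 3.90, 4.35 and 4.26 in Bmi1-overexpressing cultures, against 5.95, 6.04 and 6.06 in empty vector cultures, a difference of -1.85 (95% confidence interval -2.16 to -1.54, adjusted p = 0.0012). Dach1, a corepressor of the same network, read 3.24, 3.62 and 3.35 in Bmi1-overexpressing cultures, against 4.42, 4.45 and 4.40 in empty vector cultures, a difference of -1.02 (adjusted p = 0.0049). For both genes every Bmi1 array lay below every empty vector array. Eya2, Eya3 and Dach2 had differences of 0.41 (adjusted p = 0.10), -0.27 (adjusted p = 0.08) and 0.02.
The partners of Pbx proteins moved in both directions. Of 8 measured, 2 rose and 1 fell, a share of 37.5%, against 12.3% of the genes with a mean of at least 5. Meis2, a TALE homeodomain protein that pairs with Pbx proteins, read 8.26, 8.44 and 8.46 in Bmi1-overexpressing cultures, against 7.73, 7.63 and 7.74 in empty vector cultures, a difference of 0.69 (adjusted p = 0.0070). Tgif1, a TALE repressor, had a difference of 0.46 (adjusted p = 0.049), and lost its call without any 1 of the 6 arrays (adjusted p = 0.054 to 0.16) and after median centring (adjusted p = 0.09). Pbxip1, which binds Pbx proteins and inhibits them, read 8.42, 8.38 and 8.44 in Bmi1-overexpressing cultures, against 8.92, 9.01 and 8.99 in empty vector cultures, and fell by 0.56 (adjusted p = 0.0060). Meis1 had a difference of 0.20 (adjusted p = 0.30). Meis2, Tgif1 and Pbxip1 were named after their values were seen.
Full-length Groucho proteins are corepressors that many of the homeodomain factors recruit, and their activity was not measured here. Of 6 measured Tle genes, 2 fell (Tle5 and Tle6) and none rose, a share of 33.3%. None of Tle1, Tle2, Tle3 and Tle4 passed. Tle5, a short member of the family that was once called Aes and is listed under both names, read 9.09, 9.06 and 8.99 in Bmi1-overexpressing cultures, against 9.80, 9.84 and 9.78 in empty vector cultures, a difference of -0.76 (adjusted p = 0.0023). Tle6 read 6.33, 6.08 and 5.90 in Bmi1-overexpressing cultures, against 6.95, 7.05 and 6.98 in empty vector cultures, a difference of -0.89 (adjusted p = 0.0098). Tle1 and Tle3 had differences of 0.34 (adjusted p = 0.11) and 0.41 (adjusted p = 0.06), and Tle4 had one of -0.29 (adjusted p = 0.12). The groups did not overlap for any of the 6, all of which had a mean of at least 5, a class in which 46.1% of genes did not overlap and 12.3% passed the test.
Among the 12 partners of LIM homeodomain and GATA proteins, Lmo1 rose and none fell, a share of 8.33%. The share was 5.7% of all probe sets and 12.3% of the genes with a mean of at least 5, and 1 of the 12 had a mean under 5. Lmo1, a LIM-only protein that binds Ldb1, read 7.55, 7.49 and 7.60 in Bmi1-overexpressing cultures, against 6.68, 6.76 and 6.90 in empty vector cultures, a difference of 0.77 (adjusted p = 0.0047). Of 29 patterning homeobox genes outside the 13 families, Prrx1 rose and none fell, a share of 3.45%, against 5.7% of all probe sets. Of these 29, 20 had a mean under 5, a class in which 2.15% of genes passed. Prrx1, a paired-related gene of limb and craniofacial mesenchyme, read 6.63, 6.56 and 6.81 in Bmi1-overexpressing cultures, against 5.13, 4.82 and 5.14 in empty vector cultures, a difference of 1.63 (95% confidence interval 1.35 to 1.92, adjusted p = 0.0012). No array overlapped with the other group for either gene. The 3 other LIM homeobox genes and the 3 other T-box genes measured did not pass.

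**Figure D5:**
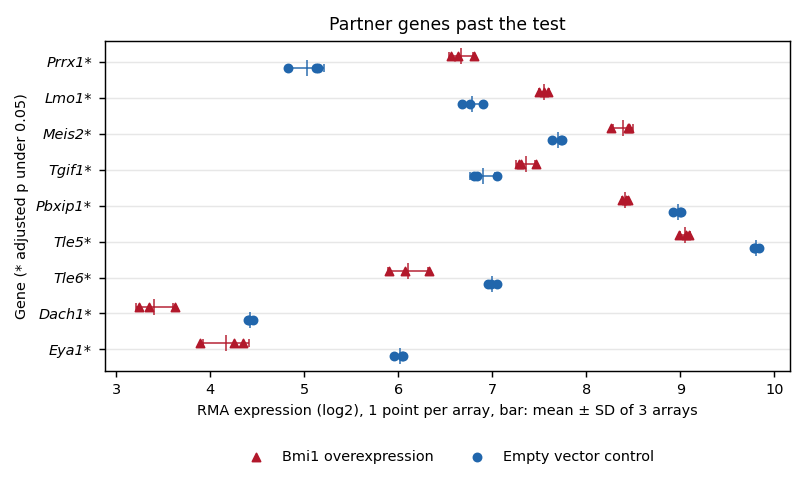
Log2 RMA values (x axis) of the 9 genes among the partners and relatives that passed the test (y axis), Prrx1 being a relative. Each array is 1 point, with triangles for Bmi1-overexpressing and circles for empty vector neurospheres, and bars give the mean and SD of each group. Prrx1, Lmo1, Meis2 and Tgif1 lie higher and Pbxip1, Tle5, Tle6, Dach1 and Eya1 lower on each Bmi1 array than on the empty vector arrays.

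The 3 relatives that the choice of genes left out were brought in for comparison. Nkx2-2, a gene of the ventral neural tube and of oligodendrocyte precursors, read 6.77, 7.01 and 6.70 in Bmi1-overexpressing cultures, against 4.82, 5.35 and 4.85 in empty vector cultures, a difference of 1.82 (adjusted p = 0.0029) that is larger than that of any of the 70 genes. It is among the genes the study selected on these arrays. Its measured neighbour on one side was Nkx2-4, with a difference of 0.14. On the other side it was the lncRNA 6430503K07Rik at 0.40 (adjusted p = 0.23, groups overlapping), followed by Pax1 at 0.09. Lhx2 and Pax6, both forebrain progenitor genes, had differences of 0.30 (adjusted p = 0.066) and 0.25 (adjusted p = 0.12), and passed in 6 and 2 of their 19 alternatives.
Marker genes were read beside these results. Of 9 neural stem and progenitor markers, 3 rose and none fell, a share of 33.3%. The share was 5.7% over all probe sets and 12.3% among the genes with a mean of at least 5. The 3 that rose were Prom1 at 1.58 (adjusted p = 0.0042), the Notch target Hes5 at 1.05 (adjusted p = 0.010) and Sox9 at 0.62 (adjusted p = 0.0056). The summed signal of the 9 markers on the linear scale was 13641 to 14291 in Bmi1-overexpressing and 12743 to 13448 in empty vector cultures. Vim and Fabp7, the brightest of the 9, weigh most in that sum. Their differences were -0.02 (adjusted p = 0.90) and 0.24 (adjusted p = 0.24). Slc1a3, a glutamate transporter gene, had a difference of -0.31 with no overlap (adjusted p = 0.10). Sox2 averaged 10.42 in Bmi1-overexpressing and 10.20 in empty vector cultures. Nes averaged 9.64 in Bmi1-overexpressing and 9.69 in empty vector cultures. Gfap was dim, at 3.49 in Bmi1-overexpressing and 3.39 in empty vector cultures. Of 5 oligodendrocyte precursor markers, Pdgfra rose by 1.00 (adjusted p = 0.012) and none fell, a share of 20%. Olig1 lay higher, at 0.20, and Olig2 lower, at -0.19, without overlap and without passing, and Cspg4 had a difference of 0.38 (adjusted p = 0.21). Their summed signal was 4138 to 4650 in Bmi1-overexpressing and 4211 to 4256 in empty vector cultures. Of 16 pericyte, fibroblast and meninges markers, 2 fell (Twist1 at -2.40 and Acta2 at -1.34) and none rose, a share of 12.5%. Their summed signal was 481 to 594 in Bmi1-overexpressing and 823 to 1088 in empty vector cultures, and 8 of the 16 had a mean under 4, Pdgfrb, Dcn and Lum among them. Acta2 and Twist1 carried the lower sum: without them it was 286 to 318 in Bmi1-overexpressing and 287 to 313 in empty vector cultures. The sum of 6 neuron markers was 1289 to 1396 in Bmi1-overexpressing and 1705 to 1742 in empty vector cultures, and most of it was Map2, which fell by 0.47. Without Map2 it was 175 to 198 in Bmi1-overexpressing and 125 to 140 in empty vector cultures. Of the 6 neuron markers, 2 rose (Dcx by 0.55 and Elavl3 by 1.22) and 1 fell (Map2), a share of 50%. Dcx was dim, with a mean of 3.25. The others did not pass: Tubb3 had a difference of 0.89 (adjusted p = 0.094), Rbfox3 one of -0.12 and Snap25 one of -0.07. The part of these markers in the changes of Pbx3, Tbx3, Six3, Nkx2-2 and the partners and relatives was not tested. None of the 7 endothelial, 6 microglial and blood, 9 choroid plexus and ependymal or 5 skeletal muscle markers measured passed the limma test. An unadjusted p under 0.05 was reached by 0, 0, 1 and 1 of them in that order.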

How the data were processed

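RNA of 6 neurosphere cultures, 3 Bmi1-overexpressing and 3 empty vector, was hybridised to Affymetrix whole-transcript mouse arrays (Mouse Gene ST 1.0), with 300 ng of total RNA each. The deposited values are log2 expression per probe set, which the authors made by RMA in Affymetrix Expression Console per the processing notes. RMA draws dim probe sets together, so their differences are understated. For versions and genome build, the entry is not given in the sources used here.
Of 35557 probe sets, the platform annotation names 1 gene for 21789 and several for 1621, and 12147 are unnamed here. The probe set with the highest mean over 6 arrays stood for a gene, 19938 in all. All 70 Entrez identifiers of the patterning factors were found in the RefSeq table of GRCm38.p6, which gave chromosomes and neighbours, and 0 symbols changed. Opposite-strand transcripts were not counted as members.
The comparison used lmFit and eBayes of limma 3.58.1 (R 4.3.3), two-sided and without a filter, and the Benjamini-Hochberg adjustment took in every probe set. The script was tested on simulated data. The 3 arrays per group limit the precision, and for 1 gene the smallest exact permutation p is 0.1. Promoter windows ran from 250 bases before to 50 after the most upstream start of a gene. Figures were drawn with matplotlib 3.10.9.
The text names the genes past the test, in each family the largest difference that did not pass, and forebrain genes. It also names the 6 largest called differences among partners and relatives, the 3 relatives left out and the label check genes. Others named with values serve as list members or neighbours. The members and all lists were chosen with earlier results of these data known. Alternatives covered the t-test of the methods and its Welch form, dim filters at a mean of 5 and 6, 1 probe set per gene, repeated value sets counted once, the mean of all probe sets, median centring, quantile normalization, variance priors, array weights, a replicate block, the member rule, a log2 difference of at least 1 and each array left out.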

Additional observations from a re-analysis of the deposited data

How the results depend on the processing

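The counts of patterning factors depended on the test and on which probe sets shared the adjustment, while no setting called more than 4 in either direction. The counts that rose and fell, 2 and 1 in the report, became 1 and 0 by the methods' t-test after Benjamini-Hochberg, 0 and 0 by its Welch form, 0 and 0 at the study's thresholds, 0 and 0 with a log2 difference of at least 1, 4 and 4 among probe sets with a mean of at least 5, 4 and 2 over 1 probe set per gene and 4 and 2 with the mean of all probe sets. With any 1 array left out, 1 to 2 rose and 0 to 0 fell. Pbx3 lost its call only by the Welch form (adjusted p = 0.16), with adjusted p from 2.7e-04 to 0.16 over its 19 alternatives. Over 18 alternatives each, Tbx3 ran from 0.0049 to 0.14 and Six3 from 0.0077 to 0.14, and each lost its call in 9, among them all 6 with an array left out. Emx2 passed in 5 alternatives and Otx1 in 4, all but 1 of them (Emx2 without empty vector replicate 1) with fewer probe sets in the adjustment. With fewer probe sets Nkx2-5 also passed in 3, and Irx5 (adjusted p = 0.041) and Pbx2 (adjusted p = 0.033) passed with a mean of at least 5. Adding Pax6, Lhx2 and Nkx2-2, an alternative chosen after seeing the data, gave 3 rises and 1 fall.
Of the partner genes and relatives, 4 rose and 5 fell in the report. By the Welch form 0 rose and 2 fell, at the study's thresholds and with a log2 difference of at least 1 it was 1 and 2, and 7 rose with a mean of at least 5, 8 over 1 probe set per gene and 8 with the mean of all probe sets. With an intensity trend in the variance prior 8 fell. Leaving out 1 array gave 3 to 4 rises and 5 to 5 falls.
Some small differences that did not pass changed sign. After median centring Emx1 was at -0.019, Otx2 at -0.034 and Gata2 at -0.025, and after quantile normalization Emx1 was at -0.0071 and Gata2 at -0.022. With 1 array left out, Otx2 ran from -0.024 to 0.066, Gata2 from -0.027 to 0.068, Gata3 from -0.082 to 0.24, Msx2 from -0.053 to 0.015 and Irx3os from -0.10 to 0.0017.
No pairing of the cultures by replicate number was seen. Deviations of same-numbered arrays from their group means correlated at 3.4e-05, -0.03 and -0.02. All pairs of arrays across the groups ran from -0.03 to 0.04. A weak pairing, or one limited to few genes, could not be seen this way, and the sources do not say which mice each culture came from. With the replicate block 1 patterning factor rose (Pbx3, adjusted p = 0.043) and 0 fell, and over all probe sets 306 rose and 544 fell. Counts over all probe sets, 794 and 1231 in the report, were 492 and 885 by the methods' t-test, 71 and 139 by the Welch form, 1544 and 1880 with a mean of at least 5, 1346 and 1847 with a mean of at least 6, 1139 and 1400 over 1 probe set per gene, 1154 and 1403 with the mean of all probe sets and 1364 and 1826 with the intensity trend, and sums of 974 to 1275 with 1 array left out. Signal over background could not be set per probe set, since no detection calls were given.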
